A study of Mus musculus with 6 samples.

Results

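The 50 genes described here encode proteins that build ribosomes, and the list names them by function and was drawn up with earlier results of these data known. They are the box C/D and box H/ACA small nucleolar ribonucleoproteins (snoRNPs), nucleolar chaperones, factors of ribosomal RNA (rRNA) gene transcription, and assembly factors of the small and the large ribosomal subunit. Among the probe sets that the platform annotation gives a single symbol, the one with the highest mean value stood for each gene. This gave a value for 49 of the 50 genes, and Npm3, a relative of nucleophosmin, had no such probe set and was not analysed here. All 49 passed the filter on low values and were tested, out of 12739 tested genes and 18193 genes with a probe set.

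Ribosome production begins in the nucleolus, where RNA polymerase I transcribes the rRNA genes into a long precursor. Box C/D snoRNPs guide methylation of the rRNA and box H/ACA snoRNPs guide its pseudouridylation, and large assemblies of processing factors then cut and fold the precursor while ribosomal proteins join it. The pathway is known for its large use of energy and for its activity in growing and dividing cells, and in the bone marrow granulocyte precursors divide before they mature into neutrophils.

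The cells were sorted from the femur and tibia marrow of Hdc-GFP mice on a C57BL/6 background, in which green fluorescent protein reports the activity of the histidine decarboxylase gene. Cells of both groups were GFP-positive or GFP-high and carried CD11b, a myeloid integrin. The Gr1lo group (3 arrays) was low and the Gr1hi group (3 arrays) was high for Gr1, an antigen carried by Ly6G and Ly6C. All samples are labelled female, strain and genotype are the same in both groups, and total RNA (100 ng per sample) was hybridized to 3' expression arrays. The labels do not say whether replicates came from separate animals, so the p-values speak only of the spread between these arrays, whose number limits the precision. For Gr1lo replicate 3 the description puts a hyphen after GFP that could also mean negative, while its other labels are those of the Gr1lo group. The comparison asks how Gr1lo cells differ from Gr1hi cells, and each difference below is Gr1lo minus Gr1hi in log2 units of the GCRMA probe set values, which the authors deposited.

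Several arrays stood apart. Xist read 2.34, 1.97 and 10.95 in Gr1lo replicates 1 to 3 and 2.28, 2.43 and 10.14 in Gr1hi replicates 1 to 3, while the Y-linked Eif2s3y lay between 9.02 and 9.87 in Gr1lo and between 9.91 and 10.66 in Gr1hi, so that the arrays do not match the female label. Replicate 3 of both groups therefore differs from the other arrays in a way the groups do not explain. Gr1lo replicate 2 stood apart in the ribosome biogenesis genes themselves, as described below, and counts are given with and without these arrays.

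Transcripts of ribosome biogenesis genes were higher in Gr1lo cells almost throughout. Of the 49 genes, 44 were higher in Gr1lo and 0 were lower (limma, adjusted p under 0.05), against 31.8% of all tested genes called higher and 24.6% called lower. In either direction the test called 56.4% of all tested genes. All Gr1lo arrays lay above all Gr1hi arrays in 46 of the 49 genes, against 34.7% of tested genes, and in 0 of the 49 did they lie below them, against 30.7%. The groups overlapped in Rrp9, Nol6 and Bysl. The median difference was 2.43, a 5.38-fold higher level in Gr1lo, while the median over all tested genes was -0.03. The 5 genes that did not pass were Rrp9, Ubtf, Nol6, Nop2 and Grwd1.

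Large differences were common among these genes. At least 4-fold higher levels were called in 30 of the 49 genes, against 9.04% of tested genes, and at least 16-fold higher levels in 6 of them, against 1.57%. Those 6 were Rrs1, Nop58, Wdr12, Fbl, Gar1 and Nolc1, which belong to the large subunit factors, both snoRNP classes, the PeBoW complex and the nucleolar chaperones. The sizes of Wdr12 and Gar1 depend on background, as their Gr1hi values lay at or near the level of the absent-transcript controls. Those of Wdr12 and Nolc1 also depend on the probe set. Other probe sets above the filter gave 0.95 for Wdr12, and 1.78 and 0.83 for Nolc1. The adjusted p was below 0.001 in 35 genes, and the highest among the called genes was 0.0343 (Bop1). A test against a 1.5-fold change called 38 of the 49 higher, where it called 19% of all tested genes higher.

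The counts moved with the arrays and the scaling, but the direction of the group did not in any setting tried. Without Gr1lo replicate 2, 42 of 49 genes were higher, with a median of 2.11. Without both replicate 3 arrays, 43 were higher, with a median of 2.57. Centring each array on the median of its tested genes (median centring below) moved the median of all tested genes to -0.70, and then 38 of the 49 were higher and 2 (Rrp9 and Nol6) were lower, against 18.2% and 65.6% of all tested genes. Centring on the hybridization controls moved it to 0.23, and then 46 were higher and 0 lower, against 38.1% and 14.6%.

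**Figure D1:**
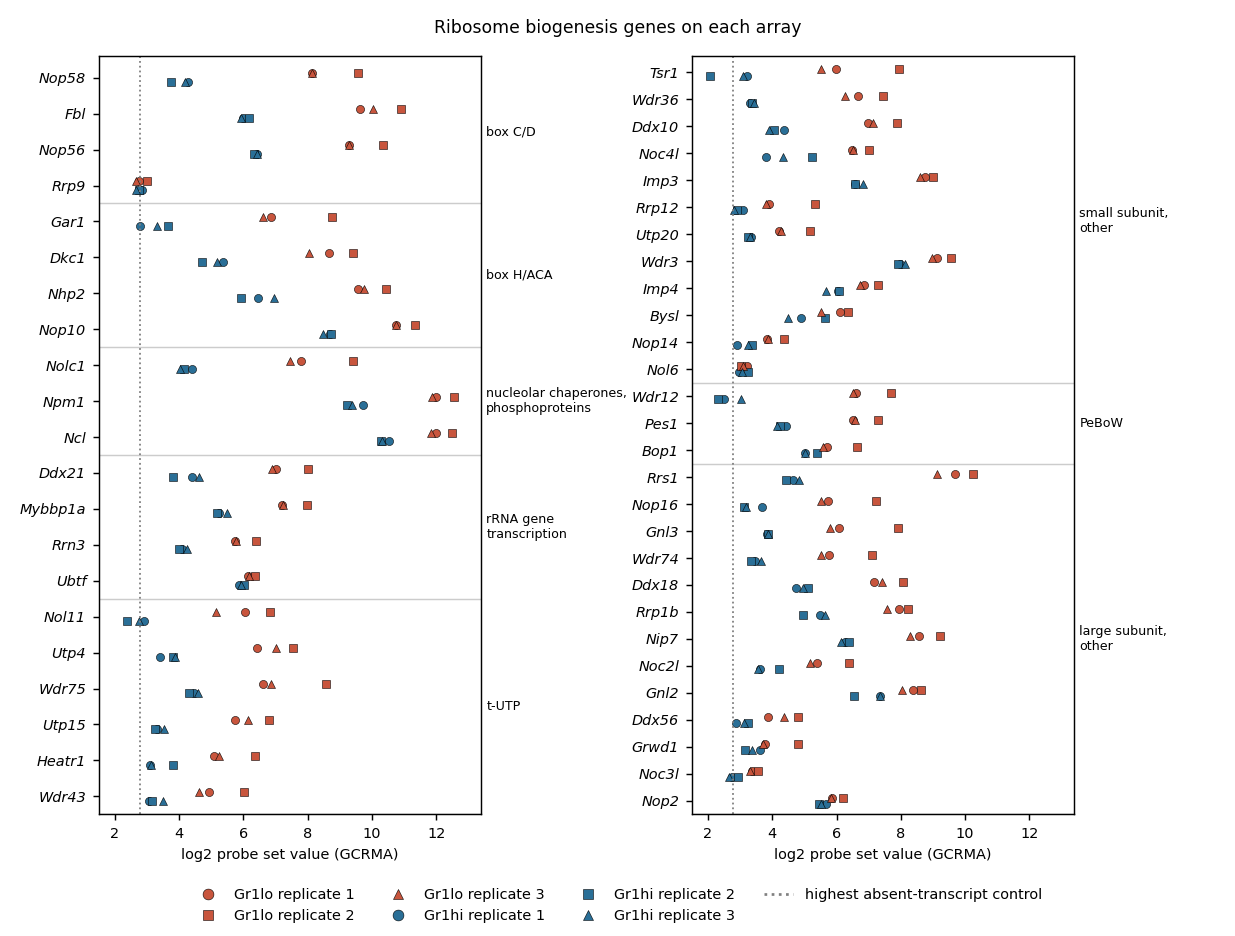
Values of the 49 ribosome biogenesis genes on each of the 6 arrays, in log2 units, grouped by role and ordered by the difference between the groups. Gr1lo replicate 2 (red square) lies farthest right among the Gr1lo arrays in 48 genes, and the dotted line at 2.77 marks the highest value of the controls for absent transcripts.

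In bulk RNA, fewer cells of a type and less RNA per cell cannot be told apart, and the Gr1lo samples also differed in their marker genes. All 7 primary granule markers of early granulocytes were higher in Gr1lo, with a summed level (log2 of the summed linear values) of 15.41 to 15.84 in Gr1lo and 10.95 to 11.89 in Gr1hi. None of the 7 was at the absent level in either group. Of 27 proliferation genes 26 were higher, and their sum was 16.36 to 16.46 in Gr1lo against 13.12 to 13.33 in Gr1hi. Of 11 later neutrophil markers 0 were higher and 5 were lower (Cxcr2, Csf3r, Mmp8, Mmp9 and Il1b), with sums of 17.14 to 17.35 in Gr1lo and 17.60 to 17.65 in Gr1hi, and none at the absent level. Those not called (Ltf, Lcn2, Camp, Ngp, S100a8 and S100a9) had group means of 14.16 to 14.99, near the highest value of the arrays (15.01). They make up most of the sums, which limits what the sums can show.

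Markers of other cell types were read in the same way. Of 9 monocyte markers 1 was higher (F13a1, 0.98) and 2 were lower (Csf1r, -4.01, and Fn1, -1.54), with none at the absent level. Csf1r was by far the brightest of them in Gr1hi, and the sums were 10.05 to 11.14 in Gr1lo and 11.92 to 12.31 in Gr1hi. Of 6 tested macrophage markers Vcam1 was higher (5.25) and Adgre1, Slc40a1 and Cd5l were lower, C1qc was at the absent level, and the sums were 11.75 to 12.01 in Gr1lo and 12.11 to 12.39 in Gr1hi. Of 7 stem and progenitor markers, Kit and Myb were higher in Gr1lo while Cd34, Flt3 and Hoxa9 were at the absent level in both groups, and the sums were 12.25 to 12.41 in Gr1lo and 10.36 to 10.53 in Gr1hi. Lymphoid and red cell lists were mostly dim, each with exceptions. Of 6 T and NK markers 5, Cd3e among them, were at the absent level in both groups and Cd3d was lower (4.32 in Gr1lo, 8.49 in Gr1hi), so that the sums were 5.20 to 5.80 in Gr1lo and 8.49 to 8.76 in Gr1hi. Of 6 tested B lineage markers Cd79b was higher and Cd79a, Ms4a1 and Ebf1 were lower. Blnk was at the absent level in both groups, and Cd79a, Ms4a1 and Pax5 were at it in Gr1lo. The sums were 6.29 to 6.47 in Gr1lo and 6.20 to 6.64 in Gr1hi. Of 6 erythroid markers Klf1, Hba-a1, Alas2 and Epor were at the absent level in both groups and Hemgn was higher (4.60 in Gr1lo, 2.64 in Gr1hi), with sums of 5.67 to 5.77 in Gr1lo and 5.13 to 5.31 in Gr1hi.

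Of 6 eosinophil markers Epx, Il5ra, Ccr3 and Prg3 were at the absent level in both groups, while Siglecf read 8.46 in Gr1lo and 8.17 in Gr1hi, and the sums were 8.24 to 8.78 in Gr1lo and 8.24 to 8.48 in Gr1hi. Of 6 basophil and mast cell markers Ms4a2 was higher (1.64) and Fcer1a and Cd200r3 had means at the absent level in both groups. The sums were 6.60 to 8.10 in Gr1lo and 5.56 to 8.22 in Gr1hi. Mcpt8 was highest on replicate 3 of each group, at 7.44 in Gr1lo and 7.74 in Gr1hi. So were Cpa3, at 3.78 in Gr1lo and 5.02 in Gr1hi, and Fcer1a, at 2.87 in Gr1lo and 3.88 in Gr1hi. Of 6 megakaryocyte and platelet markers Gp1bb was higher, Pf4 was lower with its Gr1lo mean at the absent level, and Ppbp was at that level in both groups. The sums were 6.20 to 6.33 in Gr1lo and 5.82 to 6.01 in Gr1hi. RNA integrity, read as the 3' minus 5' value of the Gapdh controls, was 0.25 to 0.45 in Gr1lo and 0.14 to 0.35 in Gr1hi. The same measure of the b-Actin controls was 0.77 to 0.94 in Gr1lo and 0.65 to 0.76 in Gr1hi, without overlap. The part of these cell type, proliferation and RNA quality differences in the result was not tested.

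The core proteins of the box C/D snoRNPs, which carry out the methylation of rRNA, were among the genes with the highest differences. Fbl encodes fibrillarin, the methyltransferase itself. It read 9.62, 10.91 and 10.03 in Gr1lo replicates 1 to 3, against 5.98, 6.16 and 5.92 in Gr1hi. The lowest Gr1lo array lay 3.47 above the highest Gr1hi array, and the difference was 4.17 (SE 0.29, limma adjusted p = 2.38e-06), an 18-fold higher level.

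Nop56 and Nop58 encode the paired scaffold proteins that hold fibrillarin on the snoRNA. Nop58 read 8.13, 9.56 and 8.14 in Gr1lo and 4.29, 3.76 and 4.18 in Gr1hi, a difference of 4.53 (SE 0.37, limma adjusted p = 6.37e-06). Nop56 read 9.27, 10.35 and 9.27 in Gr1lo and 6.43, 6.33 and 6.42 in Gr1hi, a difference of 3.24. In both genes the Gr1lo arrays were all far above the Gr1hi arrays, and replicate 2 was the highest. Rrp9, by contrast, encodes a protein found only on the U3 snoRNA, and it read 2.75, 3.01 and 2.66 in Gr1lo and 2.85, 2.74 and 2.66 in Gr1hi. These values overlapped and were close to the background of the absent-transcript controls, so that no difference could be read from the probe set of Rrp9.

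All 4 box H/ACA genes were higher in Gr1lo. Dkc1 encodes dyskerin, the pseudouridine synthase of these particles and of the telomerase RNP. Its values were 8.66, 9.39 and 8.02 in Gr1lo and 5.37, 4.71 and 5.18 in Gr1hi, a difference of 3.61 (SE 0.33, limma adjusted p = 1.29e-05). The partner genes Gar1, Nhp2 and Nop10 had differences of 4.16, 3.47 and 2.31. Gar1 read 6.87, 8.74 and 6.60 in Gr1lo and 2.77, 3.64 and 3.31 in Gr1hi, so that its Gr1lo arrays spread over 2.14 while its groups stayed 2.97 apart. Nop10 had the narrowest spread of the 4 in Gr1lo, at 10.94 ± 0.35, against 8.63 ± 0.12 in Gr1hi (SD, n = 3 each).

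The nucleolar chaperones include the brightest probe sets of the group. Npm1 encodes nucleophosmin, which shuttles ribosomal particles and histones, and it read 11.99, 12.54 and 11.85 in Gr1lo and 9.71, 9.23 and 9.38 in Gr1hi. The difference was 2.68 (SE 0.19, limma adjusted p = 2.65e-06), with no overlap. Ncl encodes nucleolin, which binds the rRNA precursor, and read 11.99, 12.47 and 11.85 in Gr1lo and 10.54, 10.27 and 10.32 in Gr1hi, a difference of 1.72. Nolc1 encodes a phosphoprotein that accompanies snoRNPs. With 7.80, 9.42 and 7.45 in Gr1lo and 4.39, 4.16 and 4.03 in Gr1hi it had the largest difference of the 3, at 4.03. The other probe sets of Nolc1 gave 1.78 and 0.83, so that this order depends on the probe set.

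Among the genes of rRNA transcription, 3 of 4 were higher in Gr1lo. Rrn3 encodes the factor that brings RNA polymerase I to the rRNA promoter in growing cells. It read 5.73, 6.40 and 5.76 in Gr1lo and 4.10, 3.99 and 4.24 in Gr1hi, a difference of 1.85 (SE 0.23, limma adjusted p = 8.18e-05). Ubtf encodes the upstream binding factor that marks active rRNA genes, and it read 6.13, 6.35 and 6.18 in Gr1lo and 5.85, 6.03 and 5.93 in Gr1hi. Its groups did not overlap, but the difference of 0.28 did not pass the test (SE 0.17, limma adjusted p = 0.202), and it was -0.40 after median centring. Ddx21, an RNA helicase that acts on rRNA genes and their transcripts, was 3.01 higher and Mybbp1a, a nucleolar regulator, was 2.17 higher.

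To see what the upstream sequence of these genes shares, the letters around the annotated transcription start were searched. A window from 250 bases before to 50 bases after the start was at hand for 42 of the 50 genes (51 windows, RefSeq, GRCm38.p6). The E-box CACGTG, which reads the same on both strands and is the letters bound by Myc and its relatives, occurred in 11 of the 51 windows (21.6%), against 9.59% of 13052 windows of the other tested genes and 7.15% of all 32851 windows. In 7 of those 11 genes it lay after the start. The other 4 genes, where it lay before the start, are shown here as the 250 bases before the start, with the E-box in capitals. Their differences between the groups ran from 3.32 (Nol11) to 0.40 (Nop2, not called).
Rrn3 (chr16:13780449-13780698, plus strand): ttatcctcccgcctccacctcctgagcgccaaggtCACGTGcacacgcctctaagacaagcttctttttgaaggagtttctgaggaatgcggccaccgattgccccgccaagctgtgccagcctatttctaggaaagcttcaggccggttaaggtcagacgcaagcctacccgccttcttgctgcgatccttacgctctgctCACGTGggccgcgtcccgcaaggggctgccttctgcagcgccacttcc
Nol11 (chr11:107189382-107189631, minus strand): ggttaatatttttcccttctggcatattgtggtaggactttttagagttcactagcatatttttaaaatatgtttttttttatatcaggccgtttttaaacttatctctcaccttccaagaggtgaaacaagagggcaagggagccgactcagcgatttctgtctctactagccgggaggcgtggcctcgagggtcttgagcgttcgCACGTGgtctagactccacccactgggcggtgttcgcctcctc
Imp4 (chr1:34439579-34439828, plus strand): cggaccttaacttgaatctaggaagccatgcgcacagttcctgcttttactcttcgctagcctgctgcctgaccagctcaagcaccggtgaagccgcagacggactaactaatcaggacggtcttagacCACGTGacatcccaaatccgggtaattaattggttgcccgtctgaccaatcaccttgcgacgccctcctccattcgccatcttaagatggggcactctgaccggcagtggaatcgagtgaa
Nop2 (chr6:125131633-125131882, plus strand): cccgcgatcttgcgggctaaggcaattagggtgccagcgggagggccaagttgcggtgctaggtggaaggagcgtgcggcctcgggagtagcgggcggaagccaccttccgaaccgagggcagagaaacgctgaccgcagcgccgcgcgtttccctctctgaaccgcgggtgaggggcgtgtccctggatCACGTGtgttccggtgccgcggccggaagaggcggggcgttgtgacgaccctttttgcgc
The E-boxes began at -215 and -48 in Rrn3, at -43 in Nol11, at -121 in Imp4 and at -60 in Nop2, counted from the start base as 1 with no position 0. Over the 11 genes with an E-box the median difference was 1.96 (range 0.40 to 3.69), and over 30 tested genes whose windows lacked it the median was 2.59 (range 0.06 to 4.53). The genes with these letters had the lower median, and the ranges overlapped. A part of the E-box in these differences was not tested.

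Other letters were searched on both strands in the same windows, each with its reverse complement. The ETS core CCGGAAG occurred in 31.4% of the windows of the ribosome biogenesis genes, against 16.3% of those of the other tested genes. The GC box GGGCGG, which many GC-rich promoters carry, occurred in 76.5% against 58.4%, and ZBTB33 letters (TCTCGCGA) in 5.88% against 1.89%, which is 3 windows. For YY1 (AAGATGGC) the shares were 3.92% and 4.19%, for NRF1 (GCGCATGC) 1.96% and 4.86%, and for the TATA box letters, TATAAA, 5.88% and 7.77%. The windows of the 42 genes had a median GC content of 59.3%, against 52.7% over all windows, and some genes contributed several windows. All windows include those of untested genes. They carried the GC box less often (35.7%) than the windows of the other tested genes, so the 2 comparisons are not alike. A match of letters is a description and shows no binding.

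The small subunit is built on a processome whose first part binds the rRNA precursor as it is transcribed. All 6 genes of that part (t-UTP) were higher in Gr1lo, with a median difference of 2.88. Utp4 read 6.43, 7.54 and 7.0 in Gr1lo and 3.41, 3.81 and 3.86 in Gr1hi, a difference of 3.30 (SE 0.29, limma adjusted p = 9.40e-06). Nol11, which is needed for rRNA transcription and processing in human cells, read 6.06, 6.82 and 5.14 in Gr1lo and 2.89, 2.39 and 2.76 in Gr1hi. Its difference of 3.32 depends on background, since its Gr1hi mean lay at the absent level. Wdr75, Utp15, Heatr1 and Wdr43 followed with differences of 2.9, 2.86, 2.22 and 1.96, and in each of the 6 genes the groups were apart.

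The differences of the 12 other small subunit genes ranged from 0.02 to 3.69. Of these 11 were higher in Gr1lo, with a median of 1.34, and the median was 0.66 with 7 higher and 1 lower after median centring. The largest difference was in Tsr1, whose product acts late in the maturation of the subunit. It read 5.99, 7.96 and 5.52 in Gr1lo and 3.21, 2.08 and 3.10 in Gr1hi, so that both groups spread widely but did not overlap, and the difference was 3.69 (SE 0.57, limma adjusted p = 3.88e-04). Its Gr1hi mean of 2.80 lay close to the absent controls, which leaves its size uncertain, and its second probe set gave 1.48. Wdr36, a propeller protein of the processome, and Ddx10, an RNA helicase, were 3.42 and 3.23 higher with smaller SEs of 0.28 and 0.27.

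Imp3 and Imp4 encode proteins of the U3 snoRNP, and they differed by 2.13 and 1.03. Imp3 varied little, with 8.76, 9.01 and 8.61 in Gr1lo and 6.59, 6.57 and 6.83 in Gr1hi. Noc4l was 2.21, Rrp12 1.40, Utp20 1.27, Wdr3 1.21 and Nop14 0.85 higher. The calls of Imp4, Rrp12, Nop14 and Bysl were lost after median centring, where their differences were 0.35, 0.73, 0.17 and 0.32.

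Bysl and Nol6 stood at the low end of the small subunit genes. Bysl encodes bystin, which binds the maturing subunit, and read 6.11, 6.36 and 5.53 in Gr1lo and 4.88, 5.63 and 4.5 in Gr1hi, so that Gr1hi replicate 2 lay above Gr1lo replicate 3. Its difference of 0.99 passed the test (limma adjusted p = 0.0250), but not without Gr1lo replicate 1 (0.0735), Gr1lo replicate 2 (0.0704), Gr1hi replicate 1 (0.0719) or Gr1hi replicate 3 (0.0938). Over all alternatives its adjusted p ran from 0.00112 to 0.387. The second probe set of Bysl gave 0.26 and was not called. Nol6, a processome protein that takes part in tRNA export in yeast, read 3.22, 3.04 and 3.09 in Gr1lo and 2.98, 3.24 and 3.06 in Gr1hi. These values overlapped fully, the difference was 0.02 (limma adjusted p = 0.872), and no array was far above the absent-transcript controls.

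**Figure D2:**
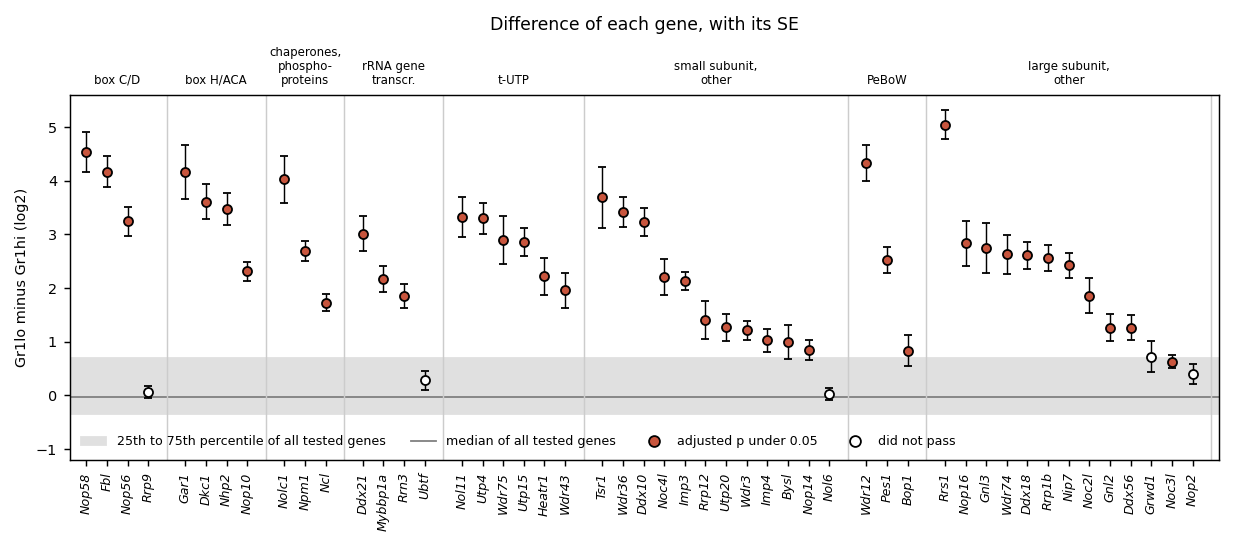
Difference of each of the 49 genes (Gr1lo minus Gr1hi, log2) with its SE from the limma fit, by role. Filled points passed at an adjusted p under 0.05, open points (Rrp9, Ubtf, Nol6, Grwd1 and Nop2) did not, and the grey band holds the 25th to 75th percentile of all tested genes, from -0.34 to 0.70.

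The PeBoW complex, named for Pes1, Bop1 and Wdr12, is needed to process the rRNA of the large subunit. Although the 3 proteins work as a single complex, their transcripts differed by unequal amounts on the probe sets used. Wdr12 read 6.62, 7.69 and 6.53 in Gr1lo and 2.51, 2.30 and 3.03 in Gr1hi, a difference of 4.33 (SE 0.33, limma adjusted p = 4.19e-06) whose size depends on background, as its Gr1hi mean lay at the absent level. Pes1 read 6.52, 7.30 and 6.57 in Gr1lo and 4.42, 4.23 and 4.15 in Gr1hi, a difference of 2.53. For Bop1 the values were 5.72, 6.64 and 5.58 in Gr1lo and 5.02, 5.41 and 5.01 in Gr1hi, a difference of 0.83 (SE 0.29, limma adjusted p = 0.0343).

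The Bop1 groups were only 0.17 apart. Its call was lost without Gr1lo replicate 2 (limma adjusted p = 0.0758, difference 0.50), Gr1hi replicate 1 (0.0942) or Gr1hi replicate 3 (0.0974), and without both replicate 3 arrays (0.0574). It was also lost after repeated quantile normalization (0.104) and after median centring (0.607, difference 0.16). The adjusted p of Bop1 ran from 0.00322 to 0.607 over all alternatives. On another probe set above the filter Wdr12 gave 0.95, Pes1 0.57 and Bop1 0.43, the last with values near the absent level. The unequal sizes thus depend on the probe set. The difference between these genes was not tested, as each was measured by its own probe set.

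Among the 13 other large subunit genes, 11 were higher in Gr1lo and in all 13 the Gr1lo arrays lay above the Gr1hi arrays. Rrs1, which encodes a factor that brings the smallest rRNA and its proteins into the large subunit, had the largest difference of all 49 genes. It read 9.68, 10.25 and 9.11 in Gr1lo and 4.66, 4.43 and 4.83 in Gr1hi. The groups were 4.28 apart, and the difference was 5.04 (SE 0.27, limma adjusted p = 5.94e-07), a 33.0-fold higher level in Gr1lo. The second probe set of Rrs1 gave 4.96.

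The GTPases of the nucleolus differed from each other. Gnl3 encodes nucleostemin, known from stem cells and dividing cells, and read 6.09, 7.92 and 5.78 in Gr1lo and 3.84, 3.85 and 3.86 in Gr1hi. Its Gr1hi arrays hardly varied (SD 0.013), its Gr1lo arrays varied widely (SD 1.16), and the difference was 2.75 (SE 0.47, limma adjusted p = 7.81e-04). Gnl2, an assembly GTPase of the same family, read 8.37, 8.64 and 8.03 in Gr1lo and 7.37, 6.55 and 7.34 in Gr1hi, a difference of 1.26.

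The helicase genes Ddx18 and Ddx56 were 2.61 and 1.26 higher, and the assembly factor genes Nop16, Wdr74, Rrp1b and Nip7 were 2.83, 2.63, 2.57 and 2.43 higher. Noc2l and Noc3l, whose proteins accompany the particle from the nucleolus to the nucleoplasm in yeast, were 1.86 and 0.63 higher. The difference of Noc3l turned to -0.05 after median centring.

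Nop2 and Grwd1 were the large subunit genes that did not pass. Nop2, which encodes a methyltransferase of large subunit rRNA and was long used as a proliferation antigen, read 5.85, 6.20 and 5.82 in Gr1lo and 5.67, 5.47 and 5.53 in Gr1hi. Its difference was 0.40 (SE 0.19, limma adjusted p = 0.102), and -0.27 after median centring. Grwd1, a chaperone of a ribosomal protein in yeast, read 3.76, 4.81 and 3.70 in Gr1lo and 3.61, 3.14 and 3.36 in Gr1hi. The difference of 0.72 missed the threshold (SE 0.29, limma adjusted p = 0.0565) and passed it without Gr1lo replicate 1 (0.0438) or Gr1lo replicate 3 (0.0291).

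The array of Gr1lo replicate 2 was the highest of the Gr1lo arrays in 48 of the 49 genes, Nol6 being the exception, whereas it was the highest in 36.8% of all tested genes. Its excess over the mean of Gr1lo replicates 1 and 3 had a median of 0.82 in the 49 genes and -0.00 over all tested genes. Only 3.08% of tested genes had an excess above 0.82. The excess was largest in Tsr1 (2.20), Gar1 (2.01), Gnl3 (1.99), Wdr75 (1.84) and Nolc1 (1.79), which cover both subunits and the snoRNPs.

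The excess was seen in every role, with medians from 0.54 in the other small subunit genes to 1.20 in the t-UTP genes. In the Gr1hi group no array stood out in this way, as replicates 1, 2 and 3 were the highest in 17, 16 and 16 of the 49 genes. The SD between replicates was larger in Gr1lo than in Gr1hi in 42 of the 49 genes, against 49.7% of all tested genes, with medians of 0.526 in Gr1lo and 0.189 in Gr1hi. Many of these genes had low Gr1hi values, and GCRMA can compress low values. The part of level in this difference of SD was not tested.

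Related lists shared the excess with smaller medians. It was 0.61 in the snoRNP assembly factors (highest on that array in 8 of 10), 0.46 in the other large subunit genes (42 of 45) and 0.41 in the other small subunit genes (33 of 38). The exosome genes had 0.44 (12 of 14) and the snoRNA host genes 0.44 (9 of 12), so that the excess was not limited to the 49 genes. The median excess was -0.02 in the 27 proliferation genes, where it was the highest array in 11. It was 0.10 in the small subunit and 0.14 in the large subunit ribosomal proteins. Primary granule markers had a median excess of 0.34 and were highest there in 6 of 7, later neutrophil markers had -0.25 with 0 of 11, and monocyte markers had -0.83. The part of these differences in cell type markers in the excess was not tested.

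**Figure D3:**
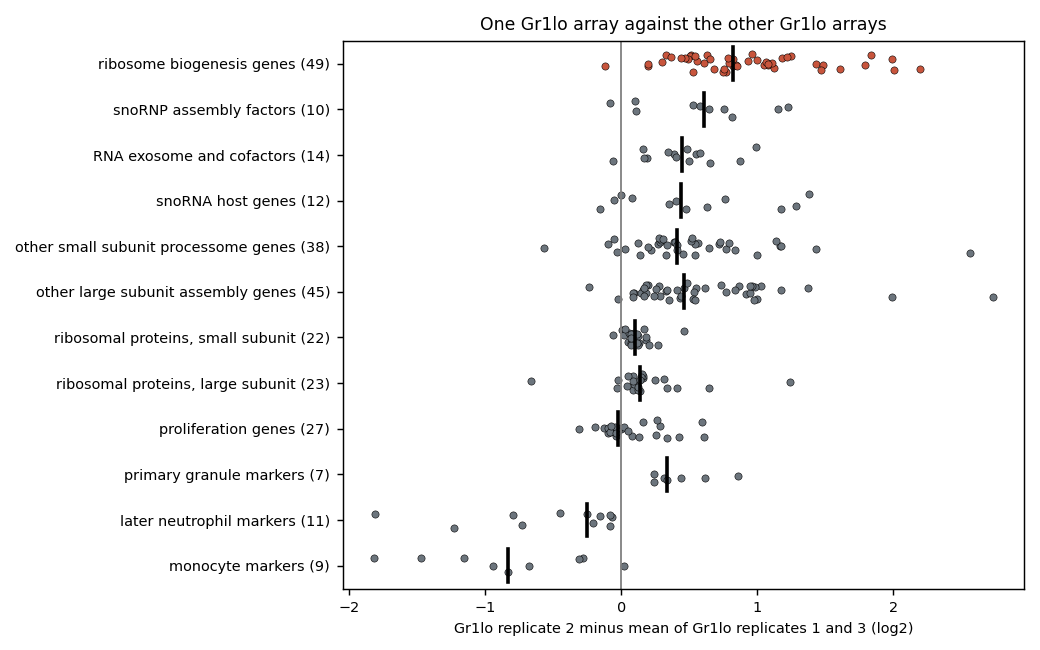
Value on Gr1lo replicate 2 minus the mean of Gr1lo replicates 1 and 3 (log2) for each tested gene of the lists named at left, with the group median as a bar and the number of genes in brackets. The ribosome biogenesis genes centre on 0.82 and the related lists of assembly genes between 0.41 and 0.61, while proliferation genes and ribosomal proteins lie near 0 and monocyte markers lie below it.

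Genes of the same pathway outside the 50 had smaller median differences. These lists were read in the same fit, and counts are also given after median centring, because smaller differences turn with that scaling. Of all tested genes 31.8% were called higher and 24.6% lower, and after median centring 18.2% were called higher and 65.6% lower. Of 10 snoRNP assembly factors 9 were higher and 0 lower (8 and 0 after centring), with a median of 1.95. They include Naf1, an H/ACA assembly factor that read 7.38, 8.66 and 7.49 in Gr1lo and 3.63, 3.16 and 3.71 in Gr1hi (difference 4.35), the ATPase gene Ruvbl1 (3.38) and Znhit3 (3.38). Of 14 genes of the RNA exosome, which trims the ends of the precursor, 12 were higher and 0 lower (10 and 2 after centring), with a median of 1.83. Exosc8, Exosc9 and Exosc1 were 3.87, 2.92 and 2.64 higher. Another probe set of Exosc8 gave -0.53 and was called lower in the fit on probe sets of smallest difference (limma adjusted p = 0.0223). The direction of Exosc8 thus depends on the probe set.

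Genes that carry snoRNAs in their introns were higher in 10 of 12 and lower in 1 (9 and 3 after centring), with a median of 1.87. The noncoding host genes Snhg1, Snhg5 and Snhg7 were 3.27, 3.08 and 2.13 higher, and Eif4a2, which encodes a translation initiation factor, was 0.65 lower. Further small subunit processome genes were higher in 30 of 38 and lower in 1 (16 and 6 after centring), with a median of 1.03, among them Esf1 (3.81), Ltv1 (3.13) and Emg1 (1.56). The gene that went the other way was Utp14a, at 7.83 ± 0.31 in Gr1lo and 9.46 ± 0.17 in Gr1hi (SD, n = 3 each). Its second probe set differed by 0.02, but its values of 2.69 to 3.05 lay near the absent level. Further large subunit assembly genes were higher in 36 of 45 and lower in 0 (24 and 6 after centring), with a median of 1.27, among them Brix1 (2.92), Pelp1 (2.53) and Trmt112 (1.27).

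**Figure D4:**
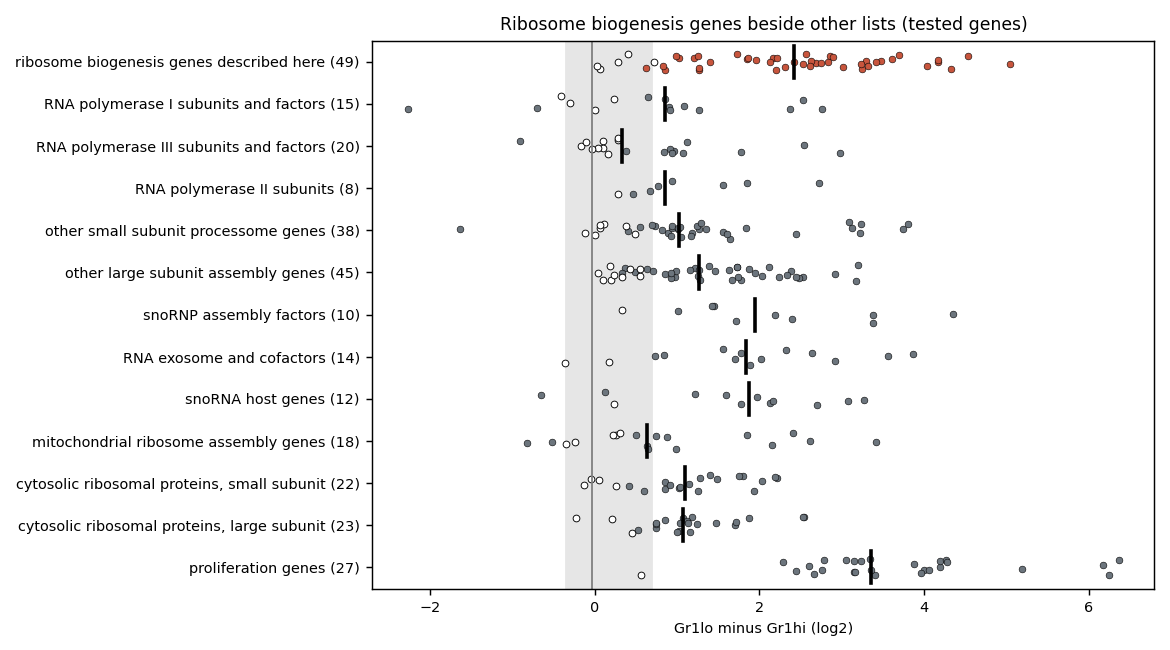
Differences (Gr1lo minus Gr1hi, log2) of each tested gene in the ribosome biogenesis group and in 12 other lists, with the number of genes in brackets and the list median as a bar. Filled points passed at an adjusted p under 0.05, the grey band is the 25th to 75th percentile of all tested genes, and the median of the ribosome biogenesis genes (2.43) lies above those of the other pathway lists and below that of the proliferation genes (3.36).

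Genes of the polymerase that transcribes rRNA were called in both directions. Of 15 RNA polymerase I subunits and factors 9 were higher and 2 lower in Gr1lo, against 31.8% and 24.6% of all tested genes, with a median of 0.85. After centring 4 were higher and 6 lower, against 18.2% and 65.6% of all tested genes. Polr1c, a subunit shared with RNA polymerase III, read 7.72, 7.87 and 7.18 in Gr1lo and 5.23, 5.08 and 5.34 in Gr1hi, a difference of 2.37. Taf1d, a subunit of its promoter factor, was 2.53 higher and the shared subunit gene Polr1d 0.85 higher, a call lost after centring.

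Polr1a, which encodes the catalytic subunit of RNA polymerase I, went the other way. It read 4.75, 4.99 and 5.27 in Gr1lo and 7.23, 7.12 and 7.46 in Gr1hi, a difference of -2.27 (SE 0.20, limma adjusted p = 1.19e-05) with the groups 1.85 apart. Its other probe sets above the filter and called gave -2.03 and -2.25, and those near the absent level gave -0.31 and -0.15. Baz2a, which encodes a part of a complex that silences rRNA genes, was also lower, with a difference of -0.70.

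RNA polymerase III makes the smallest rRNA and the tRNAs. Of its 20 tested genes 10 were higher and 1 lower, against 31.8% and 24.6% of all tested genes, with a median of 0.33. After centring 3 were higher and 10 lower, against 18.2% and 65.6% of all tested genes. Polr3k, Gtf3a and Polr3a were 2.98, 2.54 and 1.78 higher, and Maf1, which encodes the repressor of this polymerase, was -0.91. For comparison, 7 of 8 RNA polymerase II subunits were higher and 0 lower (3 and 1 after centring), with a median of 0.85, and the smallest p-values belonged to Polr2m (2.73), Polr2i (1.55) and Polr2b (0.93).

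Ribosomal proteins, the parts that the factors assemble, were mostly higher too. Their medians were smaller than that of the 49 genes and close to the 1.03 of the further small subunit processome genes. Only 22 of 33 listed small subunit proteins and 23 of 49 listed large subunit proteins were tested. Of the 22 small subunit proteins 18 were higher and 0 lower (15 and 5 after centring), with a median of 1.09. Of the 23 large subunit proteins 20 were higher and 0 lower (14 and 1 after centring), with a median of 1.08. Rpl10a read 13.38, 13.46 and 13.30 in Gr1lo and 10.95, 10.72 and 10.86 in Gr1hi, a difference of 2.54. Replicates of the ribosomal proteins varied little. Their median SD in Gr1lo was 0.077 for the small subunit and 0.090 for the large, against 0.526 for the 49 genes. Rpsa, Rps18, Rps19, Rpl22l1 and Rpl22 were 2.21, 2.19, 2.03, 2.53 and 1.72 higher.

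Factors that assemble the ribosome of mitochondria were also called in both directions. Of 18 such genes 11 were higher and 2 lower, against 31.8% and 24.6% of all tested genes, with a median of 0.64. After centring 5 were higher and 7 lower, against 18.2% and 65.6% of all tested genes. Tfb1m, Eral1 and Dhx30 were 2.62, 2.41 and 2.15 higher, while Rbfa and Nsun4 were -0.52 and -0.82, calls that were lost when the hybridization controls set the scale. The lists differ in level and in probe sets, and no test set one list against another.

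Most of the ribosome biogenesis genes were measured by more than 1 probe set. For 35 of the 49 genes there were 51 other probe sets, of which 46 passed the filter: 37 were higher in Gr1lo, 0 were lower and 9 did not pass. The difference was larger than that of the probe set used in 9 of the 51 and smaller in 42, with a median of 0.95. Sizes near or above that of the probe set used were seen in Dkc1 (4.81 and 3.83), Nop56 (3.99), Fbl (3.92) and Npm1 (2.9). Much smaller sizes were seen in other genes. Nolc1 gave 1.78 and 0.83 against 4.03 on the probe set used, and Nol11 gave 1.44, 0.72 and 0.30 against 3.32. Ddx10 gave 0.62 against 3.23, Wdr36 1.28 against 3.42 and Nip7 0.57 against 2.43. The sizes in these genes thus depend on the probe set, and some of the other probe sets had Gr1hi means at the absent level.

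Further genes disagreed between probe sets. Wdr12 gave 0.95 on a second probe set and Nop16 had a second one below the filter, while Ddx18 gave 4.2 on one and -0.02 on another that lay at the absent level. Ncl gave 2.25, 1.84 and 1.60 on 3 probe sets and -0.32 on another whose values were near that level. With each gene read on its probe set of smallest difference, 35 of 45 tested genes were still higher and 0 lower, with a median of 1.21.

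**Figure D5:**
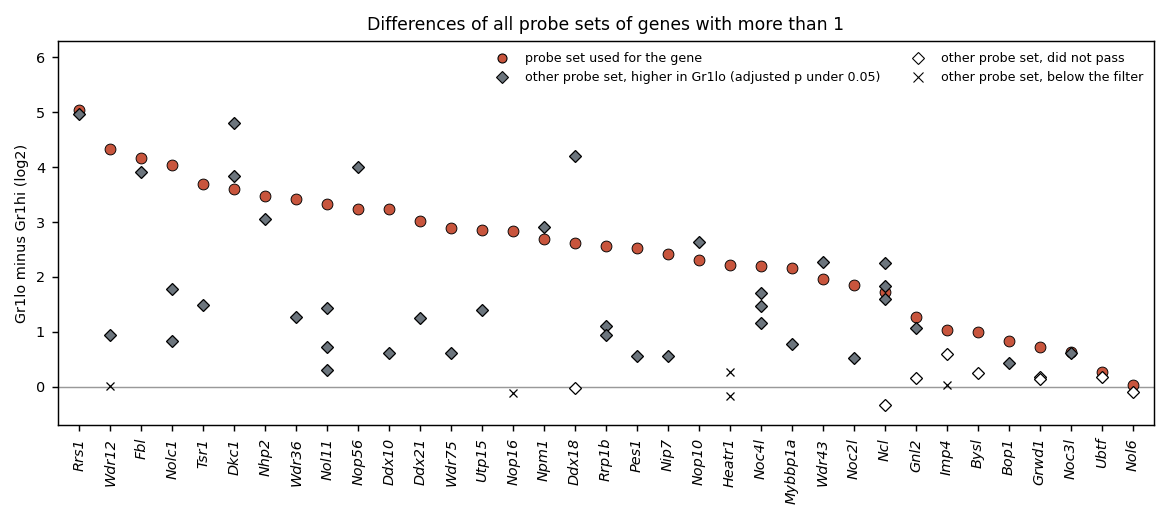
Differences (Gr1lo minus Gr1hi, log2) on every probe set of the 35 ribosome biogenesis genes that have more than 1, ordered by the probe set used. Circles are the probe sets used, diamonds the others (filled where called higher, open where not called) and crosses those below the filter, and the 5 that lie below 0 belong to Ddx18, Heatr1, Ncl, Nol6 and Nop16.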

How the data were processed

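Total RNA of 3 Gr1lo and 3 Gr1hi samples was measured on Affymetrix 3' expression arrays. The deposited log2 values were made by the authors with GCRMA, per the submitters' processing notes; the sources used here do not give its version or settings. GCRMA adjusts for background and scales arrays to each other, which can compress low values and sets the zero of each difference. The table held 45101 probe sets with values from 0.87 to 15.01 and no detection calls, so the 3 probe sets of absent-transcript controls (highest value 2.77) served as the background level. Of these probe sets 34945 had 1 symbol in the platform annotation, 932 had several and 9160 had none, besides 64 controls.

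The single-symbol probe set with the highest mean stood for each gene, which was kept where at least 3 arrays exceeded that array's 40th percentile (2.57 to 2.68). Of the 49 genes 46 exceeded it on all 6 arrays, and Nol11, Tsr1 and Wdr12 did so on 1 or 2 Gr1hi arrays. Differences were tested two-sided with lmFit and trended eBayes of limma 3.58.1 (R 4.3.3), and p-values were adjusted over 12739 genes by the Benjamini-Hochberg method, with a threshold of 0.05; the fit was tested on simulated data. No test was run on a list as a whole. The members, lists and marker genes were chosen with earlier results of these data known. Besides all members, the text names up to 3 genes of each list with the smallest p in each direction and genes that went against their list. Motif searches, Myc, the comparison of Gr1lo replicate 2 with the other Gr1lo arrays and a filter at a mean of log2 5 were added after values were seen. Promoter sequences are from RefSeq (GRCm38.p6), and no build is given for the probe annotation. Tables were summarized in Python 3.11.15 with pandas 2.3.3, and matplotlib 3.10.9 drew the figures.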

Additional observations from a re-analysis of the deposited data

How the results depend on the processing

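The 44 genes called higher became 42 to 45 when each array was left out in turn, with 0 lower in each case, a median difference of 2.11 to 2.63, and 6549 to 6893 genes called among all tested genes (7179 with all arrays). With the replicate number as a block 44 of 49 were higher and 7059 genes were called. Deviations of same-numbered arrays correlated at 0.166, 0.004 and 0.145; arrays 1 and 3 correlated best with their own number and arrays 2 did not, so the numbers were not taken as pairs. Over 21 alternatives and 1005 gene values, 961 kept direction and side of the threshold, 27 lost a call (7 genes, mostly Bysl and Bop1), 6 gained one (Nop2 and Grwd1) and 11 changed sign (7 genes). The median difference was 1.64 with all probe sets of a gene averaged, 1.21 with the probe set of smallest difference and 1.75 after centring each array on the median of its tested genes, where 2 genes were lower. Genes called among all tested genes were 4488 of 10251 with the probe set of smallest difference, where fewer genes were tested, and 3774 against a 1.5-fold change, a stricter test. Centring moved the share of called genes that were higher in Gr1lo: 56.4% as deposited, 21.7% (2313 higher, 8354 lower) after that centring and 72.3% (4848 higher, 1861 lower) after centring on the hybridization controls. After median centring the differences were -0.61 for Rrp9, -0.65 for Nol6, -0.40 for Ubtf, -0.27 for Nop2 and -0.048 for Noc3l, because that centring lowers every difference by 0.68. Nol6 was -0.031 with its probe sets averaged and -0.031 to 0.097 with each array left out, where it fell below 0 without Gr1lo replicate 1 or Gr1hi replicate 1. Rrp9 was -0.038 (without Gr1lo replicate 2) to 0.13, and both genes lie near background. On the probe set of smallest difference, Ncl was -0.32, Ddx18 -0.025, Exosc8 -0.53 and Utp14a 0.020; the cause was not tested. Values near 2.77 cannot be told from background. This limits genes with low values, among them Rrp9, Nol11, Wdr12, Tsr1, Noc3l, Rrp12, Ddx56, Nol6, Gar1, Nop14, Wdr43 and Utp20. No alternative pseudocount applied, since the values were deposited as log2.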

Other observations

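Myc, whose product binds E-boxes and is known to raise ribosome biogenesis genes, was looked up after the values of the other genes were seen. It read 5.48, 6.24 and 4.5 in Gr1lo and 3.01, 2.76 and 2.76 in Gr1hi, a difference of 2.56 (limma adjusted p = 2.41e-04). The size of this difference depends on background, since the Gr1hi values lay near the absent-transcript controls (highest value 2.77). Gr1lo replicate 2 was its highest Gr1lo array, as it was in 36.8% of all tested genes. A part of Myc in the differences of the ribosome biogenesis genes was not tested.

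The arrays also carry control probe sets for 18S rRNA, the product that the small subunit factors process. Their means were 13.12 ± 0.10 in Gr1lo and 13.24 ± 0.02 in Gr1hi at the 5' end, 13.03 ± 0.24 in Gr1lo and 13.28 ± 0.07 in Gr1hi in the middle, and 12.23 ± 0.20 in Gr1lo and 12.52 ± 0.04 in Gr1hi at the 3' end (SD, n = 3 each). These lay near the top of the range, and the 3' method primes on poly(A), so no direction is read from them. The hybridization controls averaged 7.90 to 8.20 in Gr1lo and 8.24 to 8.34 in Gr1hi.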
